A study of Mus musculus with 32 samples.

Results

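The effect of where ATP citrate lyase sits in the cell was compared between a low and a high glucose medium: the RNA difference between cells with a nuclear-directed enzyme (Nuc) and cells with an exported, cytosolic enzyme (Cyto), taken in 1 mM glucose, was set against the same difference in 10 mM glucose. The cells were mouse embryonic fibroblasts with an Acly knockout (cultured connective tissue cells that lack the endogenous enzyme) that re-expressed mCherry-tagged human ACLY with added nuclear import sequences (Nuc) or with a nuclear export sequence (Cyto), and their medium for the last 24 h was DMEM (a standard culture medium) containing 10% calf serum with 1 mM or 10 mM glucose. The libraries were 4 Nuc and 4 Cyto in 1 mM glucose and 4 Nuc and 3 Cyto in 10 mM glucose, so 15 of the 32 samples of the series; Cyto replicate 3 in 10 mM glucose was set aside by the submitters as an anomaly and was not analysed here. Libraries of the same knockout cells with tagged ACLY carrying no added sequence (WT) or with mCherry alone (KO), 4 of each per medium, entered the shared estimate of spread. All genes listed in the tables of both media were taken, 11931 of the 12913 listed in either. Whether replicate libraries are separate cultures, and whether each construct stands for more than 1 derived line, is not given in the labels, so p-values reflect the spread of these libraries only, which may be technical.

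ATP citrate lyase cleaves citrate that leaves the mitochondria and yields the acetyl-CoA used for fatty acid and sterol synthesis in the cytosol and for histone acetylation in the nucleus. Glucose is a main source of that citrate in cultured fibroblasts. The comparison asks at which genes the contrast between the nuclear and the cytosolic enzyme depended on glucose supply.

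Values are log2 expression per gene on a scale close to CPM, the reads of a gene scaled to a fixed library total, with 1 table per medium and depth unknown. The Nuc minus Cyto difference is the mean log2 level in Nuc minus that in Cyto within a medium, and the between-media difference is the Nuc minus Cyto difference in 1 mM glucose minus that in 10 mM glucose, so a positive value means a higher one in 1 mM. Each medium was its own sequencing batch, so levels are compared within a medium only, and a batch effect that acted unequally on the constructs cannot be told apart from glucose. All 10 fibroblast markers, among them Col1a1, Pdgfra and Thy1, were listed in both media. Their summed level was 54480 to 59360 in Nuc and 34750 to 38110 in Cyto libraries in 1 mM glucose, and 49840 to 53200 in Nuc and 37290 to 40820 in Cyto libraries in 10 mM glucose, on the linear CPM-like scale. Single markers differed in direction. Nuc minus Cyto was 0.91 in 1 mM and 0.54 in 10 mM glucose for Col1a1, against -0.59 and -0.47 for Pdgfra. Thy1 was low in 1 mM glucose, at log2 levels of -1.09 to 0.15 in Nuc and -0.59 to 0.38 in Cyto libraries. Of the markers of other cell types, 1 of 10 epithelial (Krt19), 3 of 10 haematopoietic (Cd68, Csf1r and Lyz2), 1 of 10 neural (Map2), 3 of 9 muscle (Ttn, Acta1 and Tnnt2), 1 of 7 pluripotency (Nanog) and 2 of 8 endothelial markers (Tek and Vwf) were listed in 1 mM glucose, the last with Pecam1 as well in 10 mM.

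The targeted gene was read first. The Acly row in 1 mM glucose stood at 9.05, 9.0, 8.96 and 8.87 in Nuc libraries, against 10.55, 10.55, 10.50 and 10.41 in Cyto libraries. Its 10 mM values were 9.24, 9.07, 9.18 and 8.98 in Nuc libraries, against 9.89, 9.67 and 9.67 in Cyto libraries. The groups did not overlap in either medium, with Nuc the lower, and KO libraries averaged 5.35 in 1 mM and 5.87 in 10 mM glucose. The gap between the constructs was larger in 1 mM glucose, with a between-media difference of -0.91 ± 0.12 (SE; limma, Benjamini-Hochberg adjusted p = 1.41e-06). The level of the Acly row, which can hold reads of the human transgene, thus differed between Nuc and Cyto by an amount that itself depended on the medium, and its part in the results that follow cannot be told apart from that of localization.

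Across all 11931 genes, 2261 (19.0%) were called for the between-media difference at an adjusted p under 0.05 in limma, 1130 of them higher (9.47%) and 1131 lower (9.48%), and 556 by at least 2-fold. In 1 mM glucose alone 4657 genes (39.0%) were called between Nuc and Cyto, 2347 higher (19.7%) and 2310 lower in Nuc (19.4%), and in 10 mM glucose 4369 (36.6%), 2155 higher (18.1%) and 2214 lower (18.6%). Of the 2545 genes called in both media, 2277 had the same sign and 268 (2.25% of all genes) had opposite signs, of which 125 were higher in Nuc than in Cyto in 1 mM glucose and 143 lower. A group of 1105 genes (9.26%) was called in both media with the same sign and with a 95% interval of the between-media difference inside -0.5 to 0.5, 487 of them higher and 618 lower in Nuc. Over all genes the Nuc minus Cyto differences of the 2 media had a Pearson r of 0.55 and a Spearman rho of 0.49, a description across genes, which are not independent replicates and share libraries within a medium.

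**Figure D1:**
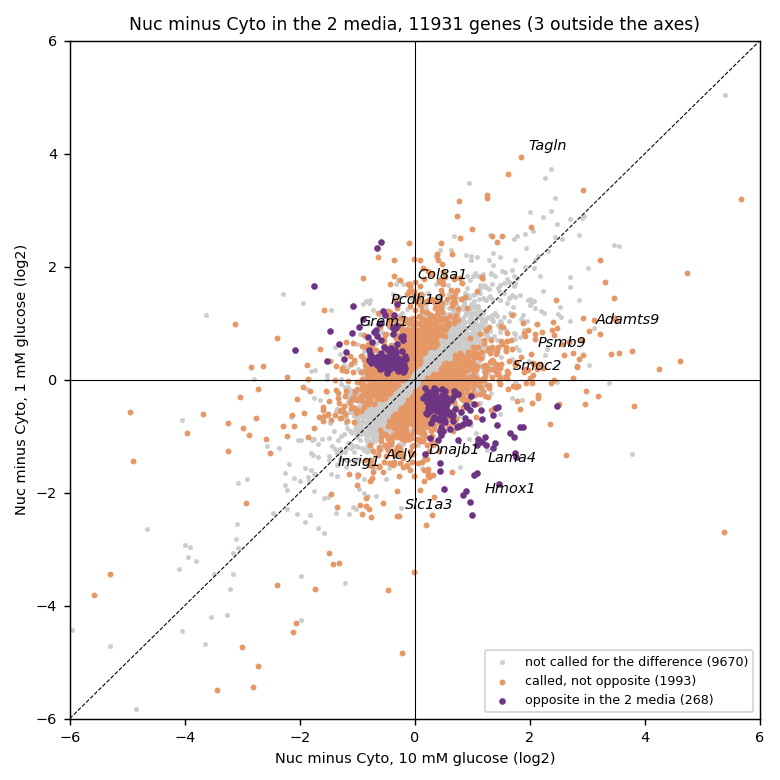
Each point is 1 of 11931 genes, with the Nuc minus Cyto difference (log2) in 10 mM glucose on the horizontal and in 1 mM glucose on the vertical axis, and the dashed line marks equal differences. The 268 purple genes lie in the upper left and lower right quadrants, where the sign turned between media, Hmox1 and Lama4 at the lower right and Grem1 and Pcdh19 at the upper left; 3 genes lie outside the axes.

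Lama4, a laminin chain of vascular and stromal basement membranes, turned sign between media. So did Hmox1, heme oxygenase 1, the heme-degrading enzyme induced by oxidative stress. Lama4 in 1 mM glucose was at 6.14, 6.08, 6.30 and 6.00 in Nuc libraries, against 7.75, 7.87, 7.78 and 7.71 in Cyto libraries. Its levels in 10 mM glucose were 5.63, 5.78, 5.61 and 5.46 in Nuc libraries, against 4.60, 4.50 and 4.52 in Cyto libraries. Every Nuc library lay below every Cyto library in 1 mM glucose and above every Cyto library in 10 mM glucose, and the between-media difference was -2.73 ± 0.12 (SE; adjusted p = 1.05e-15). For Hmox1 the Nuc libraries were at 9.03, 9.02, 9.02 and 9.11 and the Cyto libraries at 10.58, 10.93, 10.81 and 10.62 in 1 mM glucose. They were at 7.13, 7.15, 7.21 and 7.30 in Nuc and at 6.03, 6.24 and 6.22 in Cyto libraries in 10 mM glucose. Again Nuc lay wholly below Cyto in 1 mM and wholly above it in 10 mM glucose, with a between-media difference of -2.72 ± 0.13 (SE; adjusted p = 5.38e-15). WT and KO libraries in 1 mM glucose averaged 8.17 and 7.61 for Hmox1, below both Nuc (mean 9.04) and Cyto (mean 10.74).

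Grem1, Pcdh19, Prkg2 and Hmga2 turned sign the other way, higher in Nuc than in Cyto in 1 mM and lower in 10 mM glucose. Grem1, a secreted antagonist of bone morphogenetic proteins, was at 8.16, 7.97, 7.98 and 7.89 in Nuc and 7.04, 7.28, 7.14 and 7.21 in Cyto libraries in 1 mM glucose. Grem1 in 10 mM glucose was at 8.55, 8.34, 8.46 and 8.40 in Nuc and 9.46, 9.52 and 9.58 in Cyto libraries. The groups were apart in both media with their order exchanged, and the between-media difference was 1.91 ± 0.10 (SE; adjusted p = 8.25e-15). Pcdh19, a protocadherin of cell adhesion, was at 1.77 ± 0.17, Prkg2, a cyclic GMP-dependent kinase, at 1.55 ± 0.16, and Hmga2, a chromatin architectural protein, at 1.28 ± 0.11 (between-media differences ± SE, adjusted p between 1.03e-09 and 3.11e-08).

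**Figure D2:**
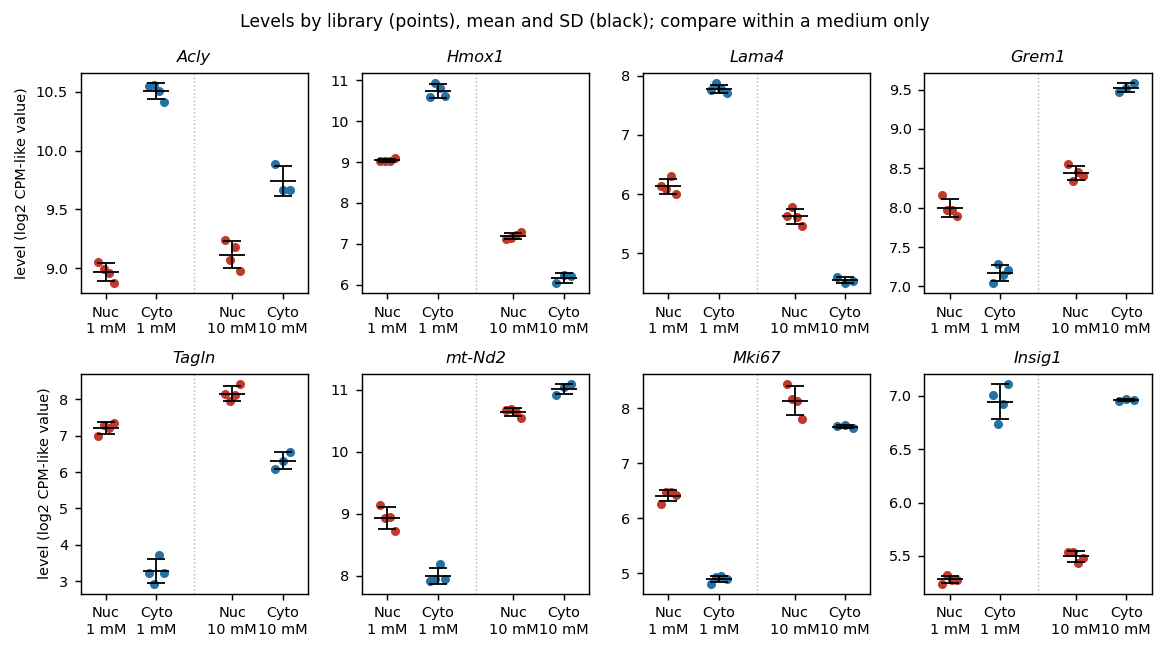
Log2 CPM-like level of 8 genes in each library (points) with the mean and SD (black) for Nuc and Cyto in 1 mM glucose, left of the dotted line, and in 10 mM glucose, right of it. Hmox1 and Lama4 are lower in Nuc in 1 mM and higher in Nuc in 10 mM glucose, Grem1 and mt-Nd2 show the reverse order, Tagln and Mki67 are higher in Nuc in both media with the wider gap in 1 mM, and Insig1 is lower in Nuc by a like amount in both.

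Tagln, transgelin, an actin-binding protein of smooth muscle and myofibroblasts, had the highest between-media difference among called genes above the median level in both media. It was at 7.0, 7.30, 7.20 and 7.35 in Nuc libraries, against 3.22, 2.93, 3.72 and 3.22 in Cyto libraries, in 1 mM glucose, and at 8.14, 7.96, 8.11 and 8.44 in Nuc libraries, against 6.09, 6.31 and 6.55 in Cyto libraries, in 10 mM glucose. Nuc was above Cyto without overlap in both media, by 3.94 in 1 mM and 1.85 in 10 mM glucose on the log2 scale, a between-media difference of 2.09 ± 0.22 (SE; adjusted p = 3.13e-08). Of 15 measured contractile and myofibroblast genes, 3 were called higher and 4 lower (median 0.24), against 9.47% and 9.48% of all genes. Col8a1, a short-chain collagen, had a Nuc minus Cyto difference of 1.66 in 1 mM glucose and of -0.08 in 10 mM glucose, where it was not called (adjusted p = 0.595). Alcam, a cell adhesion molecule, had a Nuc minus Cyto difference of 1.35 in 1 mM and -0.30 in 10 mM glucose, and Fstl1, a secreted follistatin-like glycoprotein, of 0.92 and -0.37. Hmga1, a chromatin protein related to Hmga2, had a Nuc minus Cyto difference of 0.16 in 1 mM glucose (adjusted p = 0.0651) and of -1.19 in 10 mM glucose.

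Among the 10 lowest between-media differences, those with the wider Nuc minus Cyto difference in 10 mM glucose included Adamts9 and Smoc2. Adamts9, a secreted proteoglycan-cleaving protease, was higher in Nuc in both media, by 0.86 in 1 mM and by 3.02 in 10 mM glucose, a between-media difference of -2.17 ± 0.17 (SE; adjusted p = 1.15e-10). Smoc2, a calcium-binding matricellular protein, had a Nuc minus Cyto difference of 0.05 in 1 mM (adjusted p = 0.496) and of 1.59 in 10 mM glucose. The glutamate transporter Slc1a3, the nucleobase transporter Slc43a3 and the membrane peptidase Mme had the reverse pattern. Their Nuc minus Cyto differences were -2.41, -1.41 and -1.59 in 1 mM glucose, against -0.30, 0.21 and -0.08 in 10 mM.

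Promoter sequences are shown for a gene of each of 3 groups described next, because most called members of each group differed in 1 direction and each group has a textbook regulatory element. They are from RefSeq on GRCm38.p6, 250 bases before to 50 after the gene's start, 5′ to 3′ on the gene's strand, with matches to the element in capitals; the tables of this study were made on GRCm39, so coordinates hold for GRCm38.p6 only. Of the 11931 genes, 9267 (77.7%) had such a sequence. The Gclm promoter (chr3:122245307-122245606, plus strand) holds 1 antioxidant response element on the minus strand, and those of Ifit3 (chr19:34583279-34583578, plus strand) and Ifit1 (chr19:34640639-34640938, plus strand) hold 2 interferon-stimulated response elements each. The Mcm6 promoter (chr1:128359656-128359955, minus strand) holds 2 E2F sites. No match in these 4 promoters overlapped another match of the same or another element searched.
Gclm: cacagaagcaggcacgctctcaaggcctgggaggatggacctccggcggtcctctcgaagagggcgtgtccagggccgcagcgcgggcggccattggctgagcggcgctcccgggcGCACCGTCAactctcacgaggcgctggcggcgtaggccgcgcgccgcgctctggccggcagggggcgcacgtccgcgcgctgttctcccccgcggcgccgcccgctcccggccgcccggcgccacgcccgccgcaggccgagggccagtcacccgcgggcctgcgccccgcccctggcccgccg
Ifit3: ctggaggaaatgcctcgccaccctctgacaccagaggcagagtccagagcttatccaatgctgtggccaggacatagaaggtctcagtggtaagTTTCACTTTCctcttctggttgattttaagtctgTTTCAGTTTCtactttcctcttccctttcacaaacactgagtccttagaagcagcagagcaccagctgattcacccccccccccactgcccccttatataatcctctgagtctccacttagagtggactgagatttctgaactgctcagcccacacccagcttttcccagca
Ifit1: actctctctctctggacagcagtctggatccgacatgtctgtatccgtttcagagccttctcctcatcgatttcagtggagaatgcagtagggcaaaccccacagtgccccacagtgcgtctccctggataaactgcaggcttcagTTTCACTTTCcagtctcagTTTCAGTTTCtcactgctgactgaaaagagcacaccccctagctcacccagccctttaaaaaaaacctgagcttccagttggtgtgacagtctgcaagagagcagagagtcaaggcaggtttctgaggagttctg
Mcm6: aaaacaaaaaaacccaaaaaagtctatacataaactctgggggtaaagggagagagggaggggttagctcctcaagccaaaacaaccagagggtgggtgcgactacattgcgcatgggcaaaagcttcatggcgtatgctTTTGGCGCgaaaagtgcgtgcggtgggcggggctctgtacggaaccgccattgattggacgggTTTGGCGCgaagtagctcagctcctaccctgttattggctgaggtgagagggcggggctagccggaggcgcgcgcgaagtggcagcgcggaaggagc

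Members of the antioxidant list were called for the between-media difference mostly as lower. NRF2 is the transcription factor that binds antioxidant response elements and drives glutathione synthesis and detoxification. Of 14 measured members of the list of NRF2 targets and glutathione genes, 9 had a between-media difference called lower and 1 higher, where 9.48% and 9.47% of all genes were called so; the median was -0.68, against 0.02 over all genes. In 1 mM glucose 11 members were lower in Nuc and 1 higher, and in 10 mM glucose 6 were lower and 4 higher. The shares of all genes were 19.4% lower and 19.7% higher in 1 mM, and 18.6% and 18.1% in 10 mM glucose. Gclm and Gclc are the subunits of the enzyme that makes the glutathione precursor gamma-glutamylcysteine. Gclm was at 5.46, 5.52, 5.31 and 5.65 in Nuc and 6.69, 7.12, 7.01 and 6.91 in Cyto libraries in 1 mM glucose, apart without overlap. With 10 mM glucose it was at 5.41, 5.17, 4.89 and 5.02 in Nuc and 5.32, 5.22 and 4.99 in Cyto libraries, which overlapped. The between-media difference was -1.40 ± 0.17 for Gclm (adjusted p = 6.2e-07) and -1.03 for Gclc. Slc7a11, the cystine importer, turned sign, with Nuc minus Cyto at -0.74 in 1 mM and 0.95 in 10 mM glucose, and the glutathione transferases Gsta4, Gstm1 and Gstp1 had between-media differences of -1.47, -0.84 and -1.93, Gstp1 being outside the list. Gstp1 was at 6.42 to 6.51 in Nuc and 6.89 to 7.15 in Cyto libraries in 1 mM glucose. In 10 mM glucose Gstp1 was higher in Nuc, at 6.44 to 7.05 against 5.14 to 5.31 in Cyto libraries. Nqo1, a quinone reductase, was higher in Nuc in both media, by 0.37 in 1 mM and 0.89 in 10 mM glucose. The member called higher was Txn1, thioredoxin, at 0.52 ± 0.18 (adjusted p = 0.0431); it lost the call in 15 of the 27 alternative fits, 13 of which left out a single Nuc or Cyto library, with adjusted p up to 0.124 (without Cyto replicate 4 in 10 mM glucose, 0.44). The element, TGACNNNGC on either strand, was found in 3 of 10 NRF2-list promoters (Gclm, Nfe2l2 and Prdx1) and in 14.8% of all promoters; Nfe2l2 and Prdx1 were not called.

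Members of the interferon-stimulated and antigen presentation lists were also called lower, with none called higher. Of 16 measured interferon-stimulated genes, 8 were called lower and 0 higher (median -0.45), against 9.48% and 9.47% of all genes. The count fell to 4 without Cyto replicate 4 in 10 mM glucose, and to 5 without any 1 of Nuc replicates 2 and 4 and Cyto replicates 1 and 2 in 1 mM or Nuc replicates 2 and 3 and Cyto replicate 1 in 10 mM glucose. Ifit3, an interferon-induced antiviral effector, was at 5.07, 4.85, 5.06 and 4.87 in Nuc and 6.10, 6.08, 6.04 and 6.13 in Cyto libraries in 1 mM glucose. Ifit3 in 10 mM glucose was at 3.21, 3.42, 3.13 and 3.43 in Nuc and 2.79, 3.22 and 2.97 in Cyto libraries. The groups were apart in 1 mM and overlapped in 10 mM glucose, and the between-media difference was -1.43 ± 0.22 (SE; adjusted p = 1.56e-05). Usp18, a brake on interferon receptor signalling, had a Nuc minus Cyto difference of -0.38 in 1 mM (adjusted p = 0.423) and of 1.78 in 10 mM glucose, a between-media difference of -2.16, or -1.44 with 1 added on the linear scale. Its groups did not overlap in 1 mM glucose, at 3.77 to 3.85 in Nuc and 4.06 to 4.24 in Cyto libraries. The fit uses 1 spread per gene over both media, and Usp18 varied more in 10 mM glucose. The interferon-stimulated response element, TTTC followed after any 2 bases by TTTC again, was found in 7 of 13 promoters of the list (53.8%) and in 2.97% of all promoters. Of those 7 genes, Ifit3, Gbp3 and 2 more were called lower, and Ifit1, Isg15 and Stat2 were not called. Ifit1, whose promoter is printed beside that of Ifit3, had a Nuc minus Cyto difference of -0.97 in 1 mM and -0.65 in 10 mM glucose and a between-media difference of -0.31 ± 0.31 (SE; adjusted p = 0.555). Several members were low in 10 mM glucose, which limits their differences there. In Nuc and Cyto libraries Usp18 was at -0.6 to 2.4, Gbp3 at -0.21 to 1.52, Isg15 at -0.87 to 0.82 and Ifit1 at -0.41 to 0.80.

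Among 13 measured genes of the immunoproteasome and MHC class I pathway, 6 were called lower and 0 higher (median -0.33). Of all genes, 9.48% were called lower and 9.47% higher. Psmb9, a catalytic subunit of the immunoproteasome, was at 2.02, 2.41, 2.49 and 2.61 in Nuc and 1.99, 1.67, 2.00 and 2.05 in Cyto libraries in 1 mM glucose. Its 10 mM values were 2.54, 2.70, 3.29 and 3.40 in Nuc and 0.76, 0.90 and 1.24 in Cyto libraries. The groups overlapped in 1 mM glucose and were apart in 10 mM, a between-media difference of -1.56 ± 0.27 (SE; adjusted p = 9.95e-05). The peptide transporter subunits Tap1 and Tap2, which feed MHC class I, showed the same order, with Nuc minus Cyto at 0.46 and 0.69 in 1 mM and at 1.31 and 1.61 in 10 mM glucose. H2-K1, a classical class I heavy chain, was lower in Nuc in both media, at -4.31 and -2.07, and its Nuc libraries lay at or below 1.29 throughout.

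**Figure D3:**
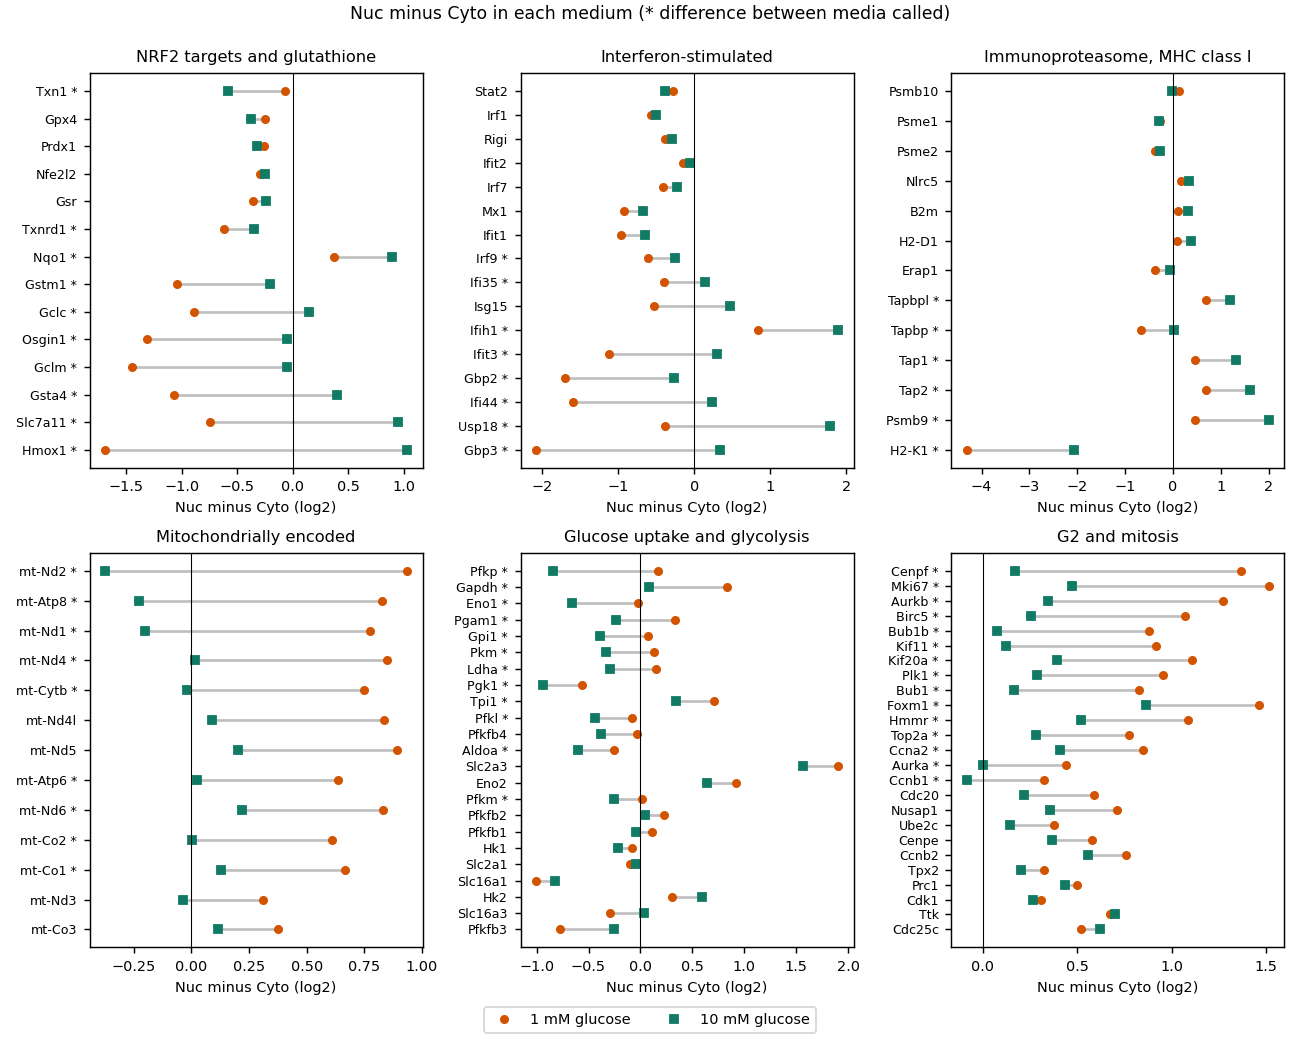
Nuc minus Cyto difference (log2) of every measured member of 6 gene lists in 1 mM (orange circles) and 10 mM glucose (green squares), ordered by the between-media difference, with an asterisk where that was called. In the upper row the orange points lie mostly left of the green ones (9 of 14, 8 of 16 and 6 of 13 members called lower), and in the lower row mostly right of them (9 of 13, 12 of 23 and 15 of 25 called higher).

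Cell cycle genes went the other way. Of 25 measured genes of G2 and mitosis, 15 had a between-media difference called higher and 0 lower (median 0.44), against 9.47% and 9.48% of all genes. All 25 were higher in Nuc in 1 mM glucose, and 15 were in 10 mM glucose, against 19.7% and 18.1% of all genes. Mki67, the proliferation marker Ki-67, was at 6.26, 6.47, 6.47 and 6.42 in Nuc and 4.81, 4.92, 4.94 and 4.89 in Cyto libraries in 1 mM glucose. Its levels in 10 mM glucose were 8.45, 8.18, 8.14 and 7.81 in Nuc and 7.68, 7.69 and 7.64 in Cyto libraries. Nuc was above Cyto without overlap in both media, and the between-media difference was 1.04 ± 0.18 (SE; adjusted p = 9.05e-05). Cenpf, a kinetochore protein, and Aurkb, the kinase of the chromosomal passenger complex, had between-media differences of 1.20 and 0.93. Of 29 measured genes of replication licensing and DNA synthesis, 13 were called higher and 0 lower (median 0.28). Of the 29, in 1 mM glucose 12 were higher and 4 lower in Nuc, and in 10 mM glucose 3 were higher and 9 lower. The shares of all genes were 19.7% higher and 19.4% lower in 1 mM, and 18.1% and 18.6% in 10 mM glucose. Cdc6, which loads the replicative helicase, turned sign, with Nuc minus Cyto at 0.95 in 1 mM and -0.32 in 10 mM glucose. The G1/S cyclins Ccne1 and Ccne2 had between-media differences of 1.20 and 1.19, and Ccnd1, cyclin D1, of 0.91. The E2F site, TTTGGCGC, was found in 5 of 23 promoters of the replication list (21.7%) and in 1.05% of all promoters. Of these, Mcm5 and Mcm6, subunits of the helicase, were called higher, at 0.43 and 0.32, and Mcm3, Cdt1 and Pola1 were not called. Mcm6 was lower in Nuc in both media, with the narrower gap in 1 mM glucose. It was at 5.76 to 6.02 in Nuc and 6.19 to 6.27 in Cyto libraries in 1 mM glucose. In 10 mM glucose Mcm6 was at 6.84 to 7.06 in Nuc and 7.58 to 7.64 in Cyto libraries.

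Transcripts of the mitochondrial genome encode core subunits of the respiratory chain and ATP synthase, and 9 of the 13 measured had a between-media difference called higher and 0 lower (median 0.69). All 13 were higher in Nuc in 1 mM glucose, against 19.7% of all genes. In 10 mM glucose 0 were higher and 2 lower, against 18.1% and 18.6% of all genes. For mt-Nd2, a subunit of complex I, Nuc libraries were at 9.14, 8.92, 8.95 and 8.71 and Cyto libraries at 7.92, 7.94, 8.18 and 7.94 in 1 mM glucose. The 10 mM values for Nuc libraries were 10.68, 10.69, 10.64 and 10.55 and for Cyto libraries 10.92, 11.04 and 11.09. The groups were apart in both media with their order exchanged, a between-media difference of 1.31 ± 0.11 (SE; adjusted p = 2.49e-10). Together the mitochondrial transcripts took 1.51% ± 0.17 of the nominal CPM total in Nuc and 0.958% ± 0.079 in Cyto libraries in 1 mM glucose, and 4.16% ± 0.053 in Nuc and 4.07% ± 0.33 in Cyto libraries in 10 mM glucose (SD, n = 4, but n = 3 for Cyto in 10 mM). Among 31 measured nuclear genes of the respiratory chain 2 were called higher and 1 lower, against 9.47% and 9.48% of all genes. The gene called lower was Ppargc1a, the coactivator of mitochondrial biogenesis, at -1.11.

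Of 23 measured genes of glucose uptake and glycolysis, 12 had a between-media difference called higher and 0 lower (median 0.35), against 9.47% and 9.48% of all genes. In 1 mM glucose 6 were higher and 4 lower in Nuc, near the shares of all genes, 19.7% and 19.4%. In 10 mM glucose 4 were higher and 12 lower, against 18.1% and 18.6% of all genes. Pfkp, a platelet-type phosphofructokinase at the committed step of glycolysis, was at 4.86, 4.58, 4.69 and 4.65 in Nuc and 4.62, 4.28, 4.59 and 4.63 in Cyto libraries in 1 mM glucose. With 10 mM glucose it was at 5.43, 5.25, 5.24 and 5.41 in Nuc and 6.19, 6.21 and 6.13 in Cyto libraries. The groups overlapped in 1 mM glucose and were apart in 10 mM, a between-media difference of 1.01 ± 0.12 (SE; adjusted p = 3.77e-07). Eno1, enolase, followed the same pattern, with Nuc minus Cyto at -0.02 in 1 mM and -0.66 in 10 mM glucose. Gapdh differed through 1 mM glucose, with Nuc minus Cyto at 0.83 there and 0.08 in 10 mM. The glucose transporter Slc2a1 was not called (between-media difference -0.06 ± 0.09, SE, adjusted p = 0.736). Arrdc4 and Txnip, arrestin-domain inhibitors of glucose uptake driven by the glucose-sensing factors MondoA and ChREBP, were the 2 of 5 measured members of that list called, both lower. Arrdc4 had a Nuc minus Cyto difference of -1.53 in 1 mM and -0.13 in 10 mM glucose. Txnip had -1.05 and -0.22, a between-media difference of -0.84 ± 0.27 (SE; adjusted p = 0.0267), and lost the call when 1 was added on the linear scale (-0.46, adjusted p = 0.159), without the libraries numbered 4 in 10 mM glucose (-0.81), and without Nuc replicate 1 (-0.78) or Cyto replicate 4 (-0.63) in 1 mM or Cyto replicate 2 (-0.81) in 10 mM glucose.

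**Figure D4:**
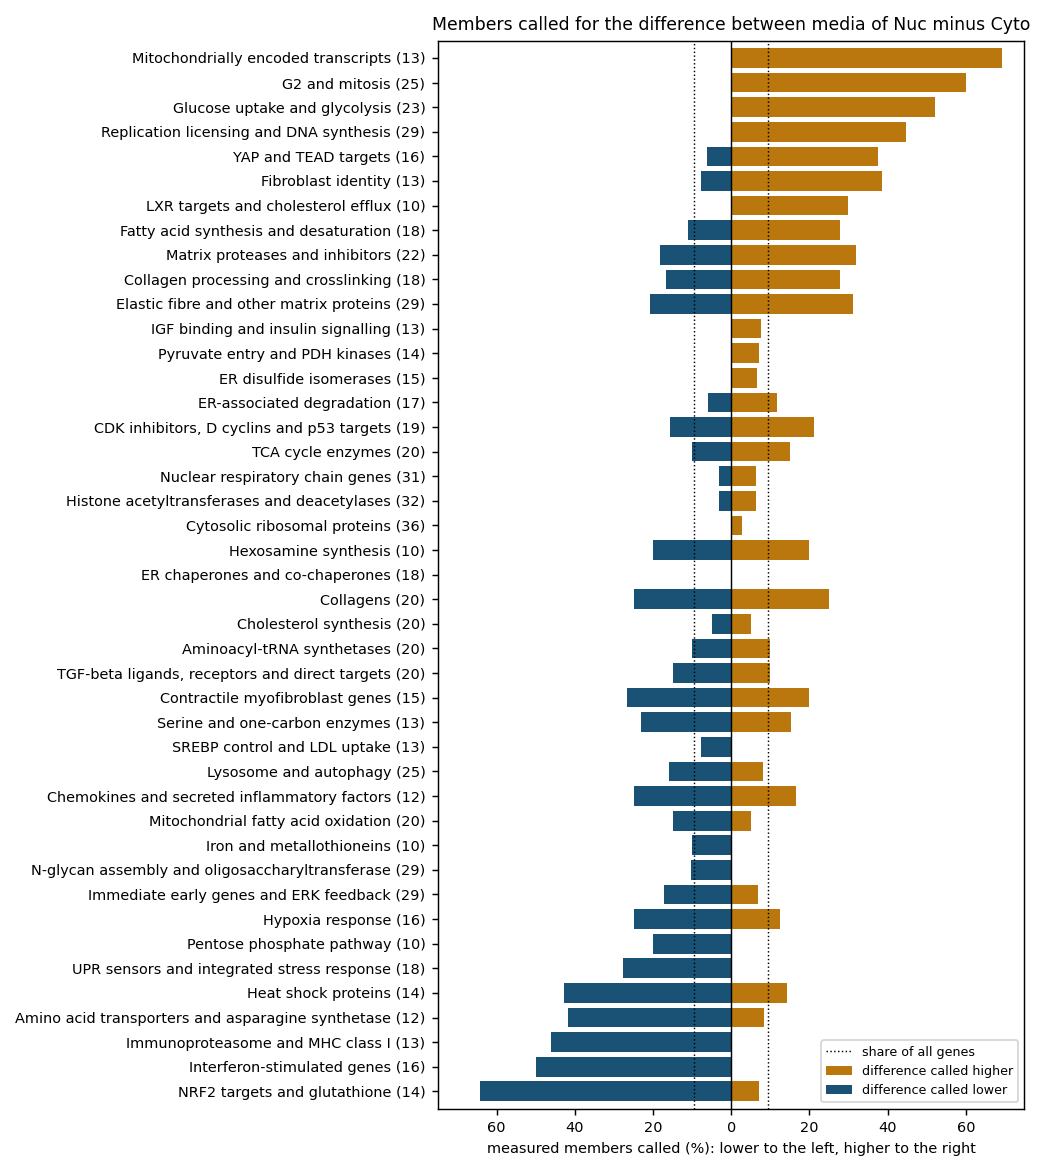
Share of measured members (%) with a between-media difference called higher (to the right) or lower (to the left) in the 43 gene lists with at least 10 measured members (number in brackets); dotted lines mark the shares of all genes, 9.47% higher and 9.48% lower. Mitochondrially encoded, mitotic, glycolytic and replication genes stand at the top, and NRF2 targets, interferon-stimulated genes and the immunoproteasome and MHC class I list at the bottom.

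Heat shock genes, of cytosolic and mitochondrial chaperones and their regulators, were called in both directions, more often lower. Over all genes 9.47% were called higher and 9.48% lower. Of 14 measured heat shock genes, 6 had a between-media difference called lower and 2 higher (median -0.06). Dnajb1, the main Hsp40 co-chaperone induced by heat shock, was at 5.29, 5.25, 5.35 and 5.28 in Nuc and 6.40, 7.08, 6.87 and 6.63 in Cyto libraries in 1 mM glucose. Its 10 mM values were 5.81, 5.90, 5.70 and 6.01 in Nuc and 5.81, 5.69 and 5.70 in Cyto libraries. The groups were apart in 1 mM and overlapped in 10 mM glucose, with a between-media difference of -1.57 ± 0.13 (SE; adjusted p = 5.22e-10). Hspb1 and Hspb8, small heat shock proteins, and Hsph1, an Hsp110 chaperone, stood at -1.48, -0.89 and -1.08, and Hsp90ab1, the constitutive Hsp90, was called higher at 0.52. Of 18 measured ER chaperones 0 were called in limma, and between 0 and 3 were called lower over the alternative fits. Of 18 sensors and effectors of the unfolded protein and integrated stress responses, 5 were called lower and 0 higher (median -0.19), led by the stress transcription factor Atf3 at -1.08 and the kinase Eif2ak3 (PERK) at -0.68; 2 were called without Cyto replicate 2 in 10 mM glucose. Of 12 measured amino acid transporters with asparagine synthetase, 5 were called lower, among them Slc7a11, Slc7a5 (-0.48), an importer of large neutral amino acids, and Slc3a2 (-0.55), the heavy chain that pairs with either, and 1 higher.

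Matrix genes differed between media in both directions, where 9.47% of all genes were called higher and 9.48% lower. Of 20 measured collagens, 18 were higher and 2 lower in Nuc in 1 mM glucose, and 14 were higher and 0 lower in 10 mM glucose. The shares of all genes were 19.7% higher and 19.4% lower in 1 mM, and 18.1% and 18.6% in 10 mM glucose. For the between-media difference 5 collagens were called higher and 5 lower (median 0.08): Col8a1, Col5a1 (0.68) and Col1a1 (0.37; 0.08 with quantile normalization, adjusted p = 0.722) were among those higher, and Col18a1 (-0.98), Col12a1 (-0.74) and Col6a1 (-0.44) among those lower. Of 29 elastic fibre and other matrix proteins, 9 were called higher and 6 lower (median 0.11). Dcn, the collagen-binding proteoglycan decorin, had a Nuc minus Cyto difference of 1.07 in 1 mM and -0.15 in 10 mM glucose, and Thbs1, thrombospondin 1, of 1.00 and -0.10. Postn, periostin, turned sign, at -0.77 in 1 mM and 0.29 in 10 mM glucose. Of 22 matrix proteases and inhibitors 7 were called higher and 4 lower (median -0.01), with the plasminogen activators Plat and Plau at 1.02 and 1.06 and Adamts9 and Mmp9 at -2.17 and -1.25. Plau was lower in Nuc in both media, at 3.3 to 3.8 against 4.0 to 4.3 in Cyto libraries in 1 mM glucose. In 10 mM glucose Plau was at 5.3 to 5.6 in Nuc and 7.0 to 7.2 in Cyto libraries. Of 16 targets of YAP and TEAD, transcription factors of cell spreading and stiffness, 6 were called higher and 1 lower (median 0.30), among them the kinases Nuak2 (1.08) and Axl (0.74); without Cyto replicate 2 in 10 mM glucose 4 were called higher and 0 lower. Of 11 markers of other cell types measured in both media, 3 had a between-media difference called higher and 0 lower: Krt19 at 2.15, Tnnt2 at 2.99 and Acta1 at 2.71 (Acta1 1.14 with 1 added on the linear scale). Tnnt2 turned sign, with Nuc minus Cyto at 2.34 in 1 mM and -0.65 in 10 mM glucose. The 8 markers not called ran from -2.02 (Ttn, adjusted p = 0.2) to 1.56, with 4 above and 4 below 0. The summed muscle markers were 6.65 to 7.95 in Nuc and 2.98 to 16.6 in Cyto libraries in 1 mM glucose, and 25.6 to 29.8 in Nuc and 35.9 to 50.9 in Cyto libraries in 10 mM glucose. The 16.6 was Cyto replicate 2, in which Ttn was at 3.91, against 0.56 to 0.95 in the other Cyto libraries in 1 mM glucose. The part of these markers in the results was not tested.

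**Figure D5:**
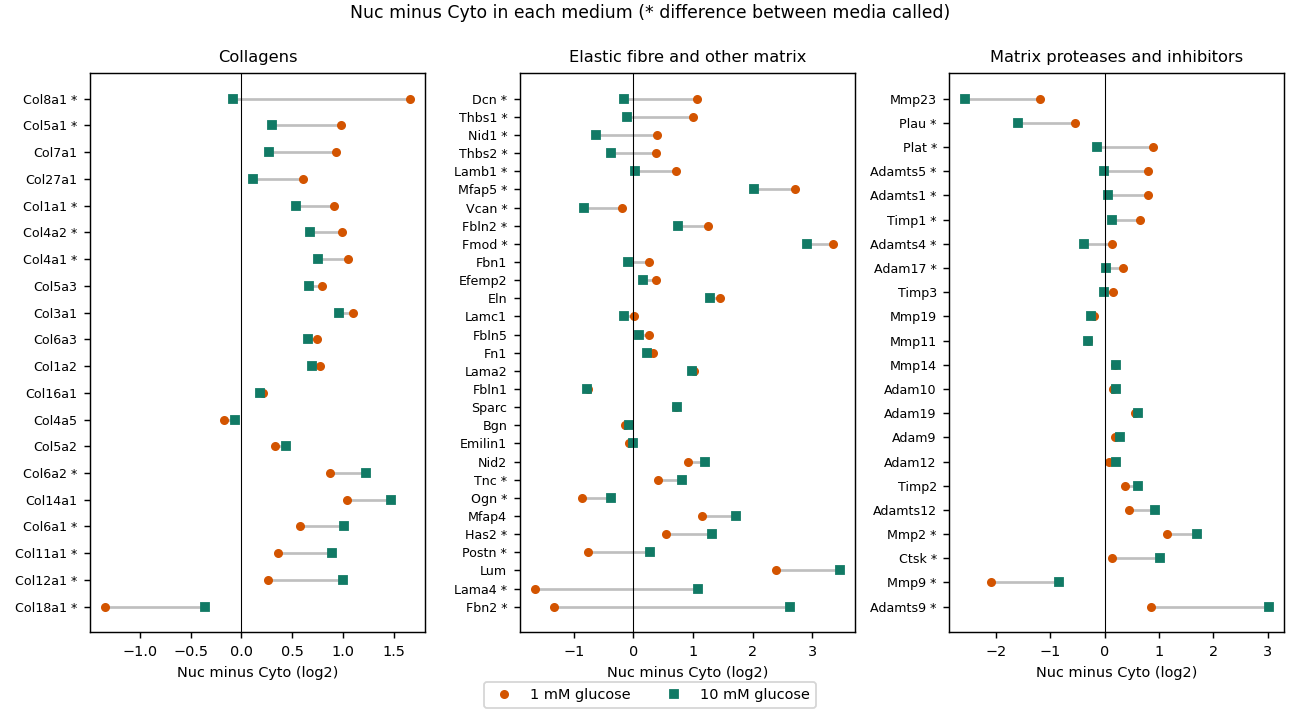
Nuc minus Cyto difference (log2) of every measured collagen, elastic fibre or other matrix gene, and matrix protease or inhibitor in 1 mM (orange circles) and 10 mM glucose (green squares), ordered by the between-media difference, with an asterisk where that was called. Most collagens lie right of 0 in both media, and Lama4 and Adamts9 have long bars on which the 10 mM point lies to the right.

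Genes of cholesterol synthesis were more often lower than higher in Nuc in each medium. Of 20 measured genes of the pathway, 11 were lower and 2 higher in Nuc in 1 mM glucose, and 11 were lower and 2 higher in 10 mM glucose. Over all genes 19.4% were lower and 19.7% higher in 1 mM, and 18.6% and 18.1% in 10 mM glucose. The between-media difference was called higher for 1, Fdft1 (squalene synthase, 0.62), and lower for 1, Cyp51 (lanosterol demethylase, -0.35). Insig1, the sterol-sensing retention protein of SREBP, was at 5.24, 5.32, 5.28 and 5.28 in Nuc and 7.01, 6.73, 6.92 and 7.11 in Cyto libraries in 1 mM glucose. Its levels in 10 mM glucose were 5.53, 5.54, 5.43 and 5.48 in Nuc and 6.95, 6.97 and 6.96 in Cyto libraries. Nuc was below Cyto without overlap in both media, and the 95% interval of the between-media difference ran from -0.45 to 0.05. Insig1 led the genes lower in Nuc with an interval inside -0.5 to 0.5, followed by Acsl4, an acyl-CoA synthetase, at -1.19 in 1 mM and -0.99 in 10 mM glucose, Renbp, a renin-binding sugar epimerase, at -0.95 in each, and Pvr, the poliovirus receptor of cell adhesion, at -0.95 and -0.88. Those higher in Nuc were led by Ccnd2, cyclin D2, at 1.43 in 1 mM and 1.34 in 10 mM glucose, Ncam1, a neural cell adhesion molecule, at 1.09 and 1.25, Pld3, a lysosomal nuclease, at 1.03 in each, and Col3a1 at 1.09 and 0.96. Of 10 measured LXR targets and cholesterol efflux genes 3 were called higher for the between-media difference and 0 lower, against 9.47% and 9.48% of all genes. The efflux pump Abca1 had a Nuc minus Cyto difference of -0.64 in 1 mM and -1.58 in 10 mM glucose.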

How the data were processed

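Bulk RNA sequencing libraries of the 4 constructs in 2 media were used. The authors deposited 1 table of log2 values per medium, with a floor of -3.592 (1 mM) or -3.293 (10 mM glucose); kallisto, edgeR, limma and GRCm39 are named, without versions, per the submitters' processing notes. Whole reads could not be recovered, and depth is unknown. The row without a symbol, 1 per table, was left out, and no other filter or transformation was applied. Differences were fitted with limma 3.58.1 in R 4.3.3 as 8 group means over 31 libraries, with a trend in the prior variance and Benjamini-Hochberg adjustment over 11931 genes. The fit was run on simulated data with independent noise and, per gene, the same spread in all libraries. That run cannot test for unequal libraries or effects shared by replicate number. No 2 libraries were alike within noise (highest correlation 0.990).

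Members, lists, rule and tests were chosen with earlier results of these data known. The rule named Acly, the 10 highest and 10 lowest between-media differences among called genes above the median level in both media, 6 genes of opposite sign, 4 shared genes per direction, and up to 4 called members per list by adjusted p; some are left out of the text, and some list members are not reported here and not counted in their lists. Other list members, Krt19, Tnnt2, Acta1 and the antioxidant, interferon and E2F elements were chosen after values were seen. Alternatives were other normalizations, offsets, weights, filters, subsets and a replicate block.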

Additional observations from a re-analysis of the deposited data

Results flagged for a closer look

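The between-media difference was itself tested, and 2261 genes were called for it; 268 of them were also called with opposite signs in the 2 media. Only genes that appear in this text were ranked by the smaller of their 2 Nuc minus Cyto differences, so genes left out, such as Ltbp2, were not. Those ranked first were Lama4 (-2.73), Hmox1 (-2.72), Grem1 (1.91), Fosb (-1.82), Slc7a11 (-1.69) and Prkg2 (1.55), with between-media differences in brackets.

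In 333 groups of 4 libraries (111 genes of the text in Nuc and Cyto in 1 mM and Nuc in 10 mM glucose) 18, or 5.41%, held a library far from the others, its gap to the nearest taking more of the group's range than Dixon's limit for 4 values; chance flags about 1 group in 20. The values in brackets are the gap as a share of the range. Of Nuc in 1 mM glucose these were Hmox1 (0.905, replicate 4 highest), Prdx1 (0.935, replicate 2 lowest) and Pld3 (0.839, replicate 1 lowest). Of Cyto in 1 mM glucose they were Ttn (0.883, replicate 2 highest), mt-Nd2 (0.902, replicate 3 highest), Slc1a3 (0.854, replicate 3 lowest), Psmb9 (0.846) and Pfkp (0.89), both with replicate 2 lowest, and Txn1 (0.851), Cdc6 (0.884) and Arrdc4 (0.895), each with replicate 1 lowest. Of Nuc in 10 mM glucose they were Txn1 (0.852) and Ccne1 (0.939), both with replicate 4 highest, Adamts9 (0.83), Pola1 (0.856) and Ccnd2 (0.871), each with replicate 4 lowest, Pdgfra (0.898, replicate 1 highest) and Ccne2 (0.843, replicate 2 highest).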

How the results depend on the processing

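Of 27 alternative fits, 12 changed the normalization, offset, filter, weights, samples or terms and 15 left out 1 Nuc or Cyto library. The fit without WT replicate 2 in 1 mM glucose was chosen after seeing the data, and called 2695 genes for the between-media difference. Among Nuc and Cyto libraries, Nuc replicate 4 in 10 mM glucose lay farthest from its group mean (SD over genes 0.33, others 0.19 to 0.27). Without it 2428 genes were called for that difference. With limma's weights per library, 3672 genes were called for the between-media difference, 497 were opposite and 1708 shared, against 2261, 268 and 1105; in the other fits the first count stayed within 1.5 times. Leaving out single libraries gave 1926 to 2428 genes for the between-media difference, 4122 to 4829 in 1 mM and 3704 to 4385 in 10 mM glucose, 217 to 278 opposite and 882 to 1078 shared. The share called higher ran from 48.5% to 52.7%, and the median over all genes from 0.0128 to 0.0239. No called direction of a named gene turned in these fits. Counts over the alternatives were 8 to 9 lower for the NRF2 list, 4 to 9 for interferon-stimulated genes, 5 to 8 for the immunoproteasome and MHC class I list, and 12 to 18 higher for G2 and mitosis, 10 to 15 for replication, 8 to 11 for mitochondrial transcripts and 9 to 12 for glycolysis.

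Same-numbered Nuc and Cyto libraries had correlations of their deviations from the group means of -0.147, 0.0422, 0.0148 and 0.123 in 1 mM and 0.0591, 0.0047 and 0.108 in 10 mM glucose. They show no clear pairing, but correlations over all genes cannot exclude an effect shared by libraries of the same number. With the replicate number as a block 2341 genes were called for the between-media difference. Depth, which is not known, limits genes near the lowest value.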

Other observations

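Secreted inflammatory factors and immediate early genes were not described above. Of 12 measured chemokines and secreted inflammatory factors, 8 were lower and 1 higher in Nuc than in Cyto in each medium. Over all genes 19.4% were lower and 19.7% higher in 1 mM, and 18.6% and 18.1% in 10 mM glucose. For the between-media difference 2 of the 12 were called higher and 3 lower (median -0.06), against 9.47% and 9.48% of all genes. Cxcl1 and Ccl2, attractants of neutrophils and monocytes, had Nuc minus Cyto differences of -0.82 and -1.30 in 1 mM and of -2.29 and -2.51 in 10 mM glucose, between-media differences of 1.47 (adjusted p = 0.015) and 1.21. C3, the central complement component, was at 3.16, 3.44, 3.59 and 3.07 in Nuc and 8.68, 8.90, 8.88 and 8.83 in Cyto libraries in 1 mM glucose. In 10 mM glucose it was at 3.19, 1.58, 0.55 and 1.18 in Nuc and 5.06, 5.22 and 4.93 in Cyto libraries, and its between-media difference was -2.06 ± 0.43 (SE; adjusted p = 0.000794).

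Of 29 measured immediate early genes and feedback regulators of ERK, 2 were called higher and 5 lower (median 0.09), against 9.47% and 9.48% of all genes. Fosb and Jun, subunits of the AP-1 transcription factor, had between-media differences of -1.82 and -0.72 (Fosb -1.14 with 1 added on the linear scale), and Egr2, a zinc finger factor of the early response, of 1.23. Of 20 measured genes of mitochondrial fatty acid oxidation 1 was called higher and 3 lower, where 9.47% and 9.48% of all genes were called so. Cpt1a, which admits long-chain fatty acids to the mitochondrion, turned sign, with Nuc minus Cyto at 0.75 in 1 mM and -0.23 in 10 mM glucose. Among 18 genes of fatty acid synthesis and desaturation 5 were called higher and 2 lower, with Fasn, fatty acid synthase, at 0.21 in 1 mM and -0.56 in 10 mM glucose.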
